A study of Mus musculus with 12 samples.

Results

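Luminal fluid of the oviduct and uterus is secreted and absorbed by channels and transporters of the lining epithelium, and 10 genes of this machinery are described here on 12 mouse gene expression arrays. They are the chloride channel gene Cftr, the chloride current regulator Clca1, the calcium-activated chloride channel genes Ano1 and Ano2, the anion exchanger genes Slc26a4 and Slc26a3, the epithelial sodium channel subunit genes Scnn1a, Scnn1b and Scnn1g, and the kinase gene Sgk1. The genes were taken by name through the probe set annotated to each, with earlier results of these data known. All 10 were among the 19938 genes measured. The shares of all genes given beside their counts are therefore for reference and not a test of the list. Each of the 10 had a single probe set.

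The 4 groups were E2 oviduct, oil oviduct, E2 uterus and oil uterus, with 3 arrays each. Mice in the preimplantation period received the estrogen estradiol (E2) at 10 µg/kg in 100 µl of sesame oil, or the oil alone (0 µg/kg), by daily subcutaneous injection from day 0.5 to day 2.5 after mating, and were dissected on day 3.5. All groups were therefore mated and injected, and RNA came from flushed tissue, not from sorted cells. The labels number the arrays of a group as biological replicates without saying whether equal numbers in the 2 tissues are the same mouse, and they state neither strain nor age.

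CFTR is a cAMP-activated channel of the apical membrane, and chloride and bicarbonate leaving through it draw sodium and water into the lumen. The epithelial sodium channel ENaC, built from alpha, beta and gamma subunits, takes sodium and with it water back up, and the kinase SGK1 raises its surface level by restraining the ubiquitin ligase NEDD4L. In the rodent uterus estrogen is known to favour fluid secretion, whereas absorption clears the fluid before implantation.

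Tissue labels were checked with marker genes. Of 14 ciliated cell genes, 13 were higher in oil oviduct than in oil uterus by limma, among them the cilia regulator Foxj1 with a mean log2 intensity of 8.33 in oil oviduct and 6.44 in oil uterus. Of 8 patterning genes listed for the uterus, 4 were lower and 3 higher in oil oviduct than in oil uterus. The list as a whole therefore did not separate the tissues in a single direction. Hoxa11, among those lower, averaged 5.66 in oil oviduct and 9.58 in oil uterus. Both oil arrays numbered 3 stood apart from the other arrays of their groups. The oviduct array differed by over 1 log2 unit from its 2 partner arrays (their mean) at 302 genes and the uterus array at 177 genes, against 8 to 62 genes for each of the other 10 arrays. Oil oviduct replicate 3 also read 11.51 for Akr1c18, an enzyme of the corpus luteum, against 4.48 and 4.77 on replicates 1 and 2. For some of the results that rest on these arrays, values without them are also given.

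The arrays carry no detection call, so 7 Y-linked genes, which female tissue lacks, served as a rough guide to background. Sry reached a log2 intensity of 7.50 and none of the other Y-linked genes exceeded 4.40, so background differs between probe sets and no filter was set on it. Levels are compared below only within a gene, apart from readings against 4.40, a rough guide that leaves out Sry. Below the highest Sry value lay 10257 of the 19938 genes on all arrays, so 4.40 does not mark what is detected.

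**Figure D1:**
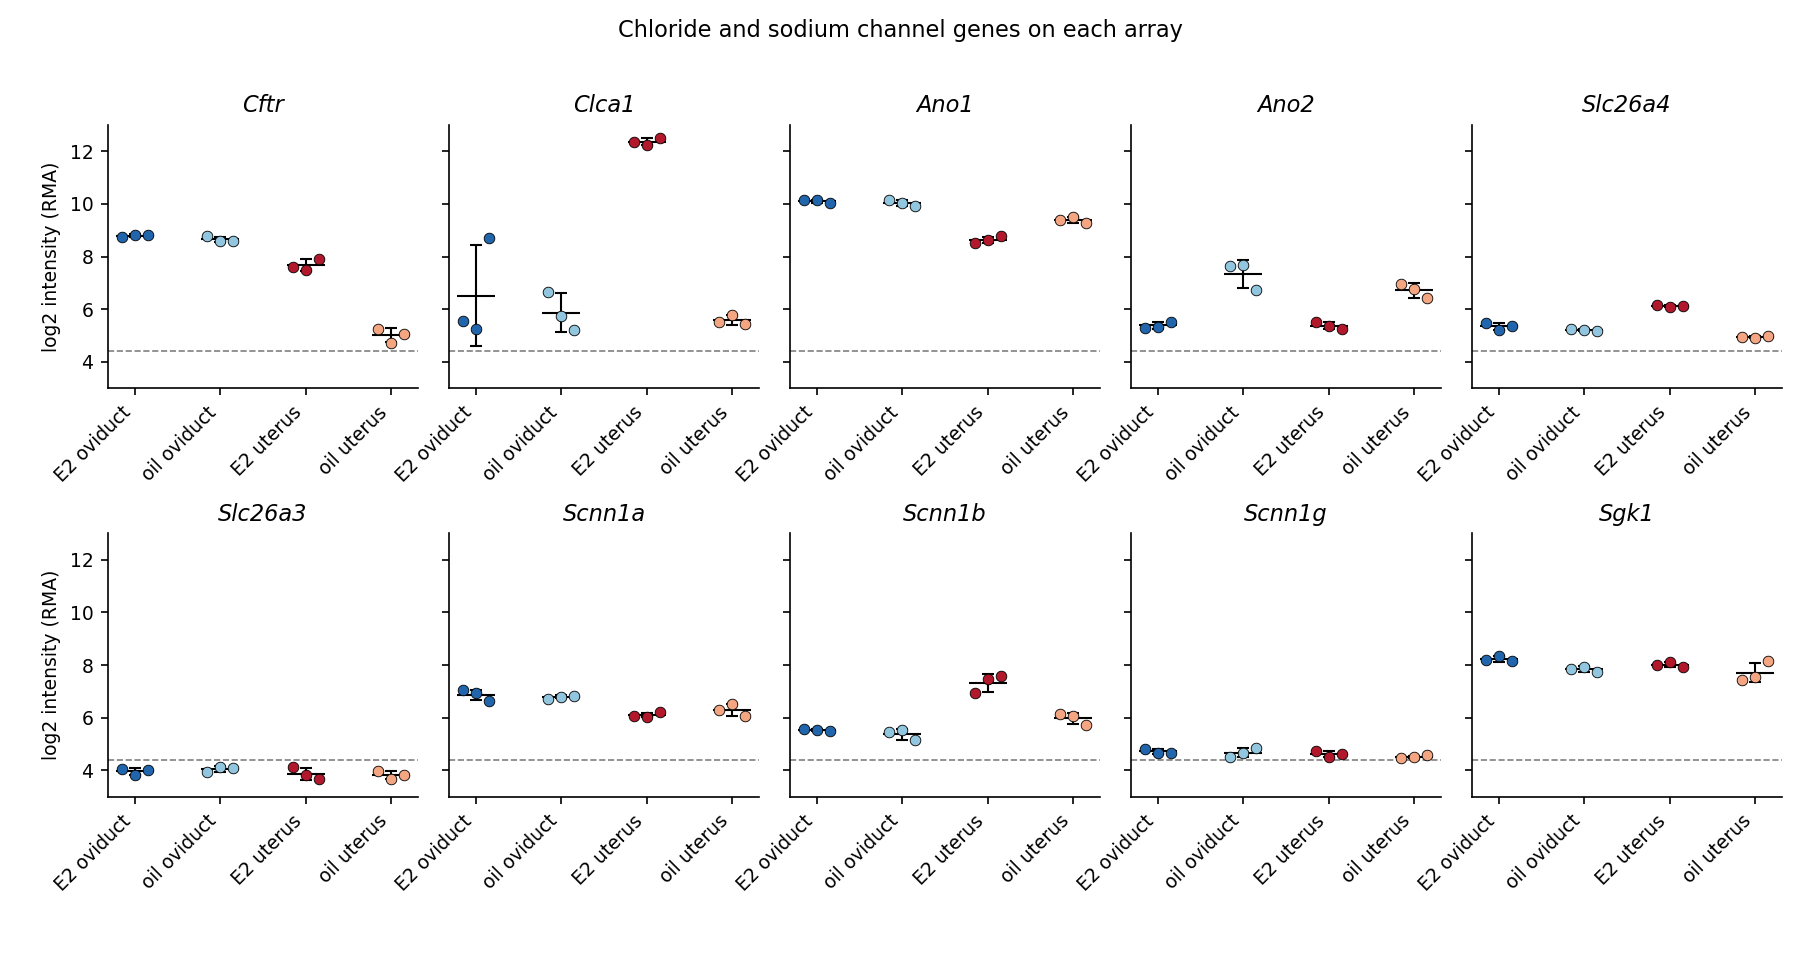
Log2 intensity (y axis) of the 10 genes in E2 oviduct, oil oviduct, E2 uterus and oil uterus (x axis). Points are single arrays, bars are the mean with the SD (n = 3), and the dashed line at 4.40 is the highest Y-linked value other than that of Sry. Cftr, Clca1, Slc26a4 and Scnn1b lie higher on all E2 uterus arrays than on any oil uterus array, Ano1 and Ano2 lie lower, and Slc26a3 is below the line throughout.

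In the uterus, E2 changed 6 of the 10 genes: Cftr, Clca1, Slc26a4 and Scnn1b rose, and Ano1 and Ano2 fell. The 6 of 10 stand beside 26.7% of all genes called by limma at an adjusted p under 0.05, the 4 higher beside 12.4%, and the 2 lower beside 14.3%. Arrays of the E2 and oil groups did not overlap for 6 of the 10 genes, where 40.5% of all genes did not overlap. The median log2 fold change of the 10 genes was 0.20, against -0.00070 over all genes. In the oviduct 1 of the 10 genes was called, Ano2, which fell, beside 0.291% of all genes (0.13% called lower). Another gene, Sgk1, had an unadjusted p under 0.05 there, and 2 of the 10 genes did not overlap, where 17.4% of all genes did not. The oviduct median was 0.11 over the 10 genes and -0.0057 over all genes. Without oil replicate 3 in both tissues, 7 of the 10 genes were called in uterus, Sgk1 being the addition, beside 5592 of the 19938 genes. In oviduct 1 of the 10 was called, beside 121 of the 19938 genes. The number of arrays limits the precision of every value.

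**Figure D2:**
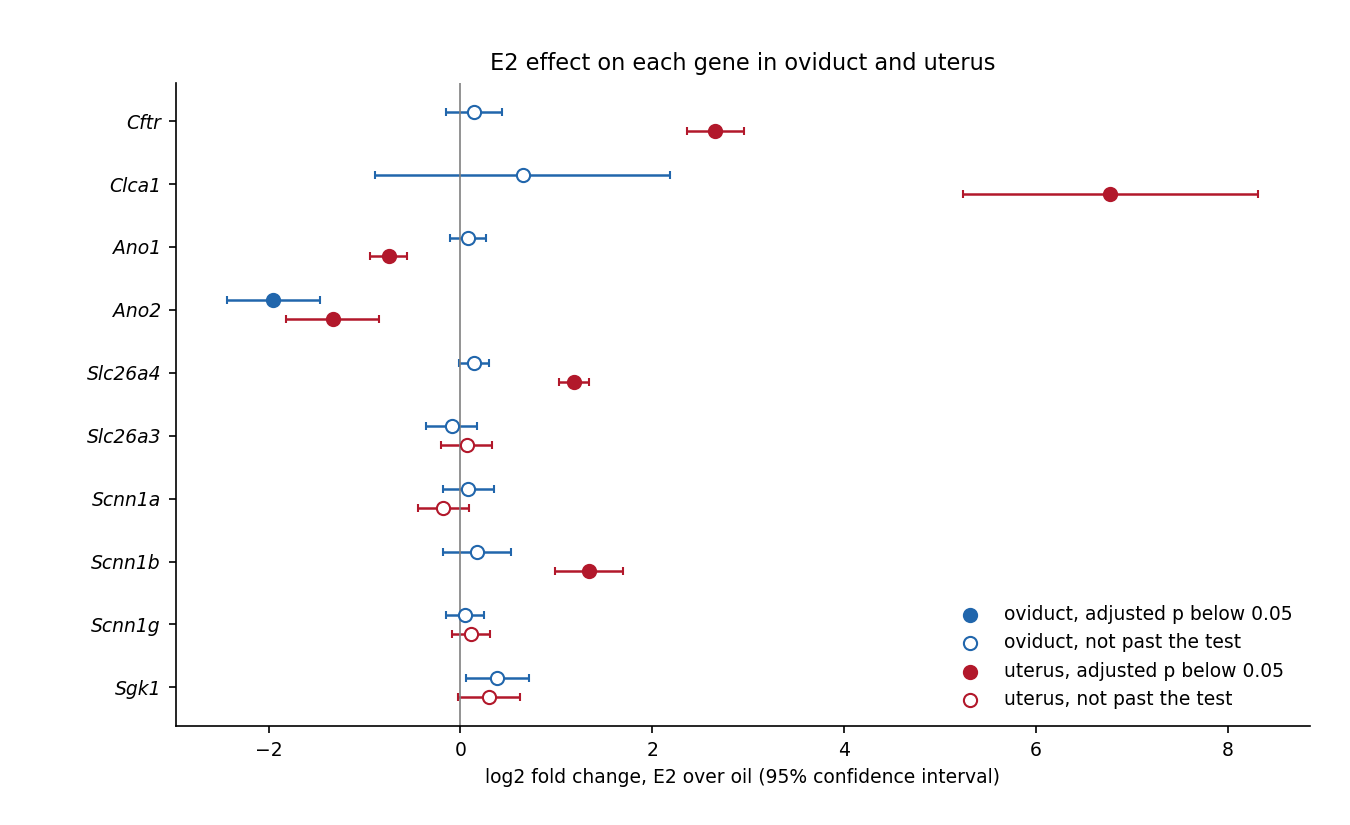
Log2 fold change of E2 over oil for the 10 genes (x axis) in oviduct and in uterus, from limma, with 95% intervals. Filled points passed the test at an adjusted p under 0.05. In uterus 6 genes passed it, with Clca1 at 6.78 and Cftr at 2.66, and in oviduct Ano2 at -1.95 passed.

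Cftr had log2 intensities of 7.62, 7.49 and 7.91 in E2 uterus, against 5.26, 4.73 and 5.06 in oil uterus. The groups were far apart and did not overlap. Cftr rose by 2.66 (SE 0.13, adjusted p = 2.0e-07 by limma), a 6.31-fold higher intensity. In the oviduct it was at 8.73, 8.81 and 8.83 after E2, against 8.77, 8.59 and 8.59 after oil. These arrays overlapped, and the difference of 0.14 (95% interval -0.15 to 0.44, adjusted p = 0.77 by limma) did not pass the test. The E2 effect in oviduct minus that in uterus was -2.52 (SE 0.19, adjusted p = 1.7e-05 by limma).

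Clca1 encodes a secreted protein of mucus-producing cells that raises calcium-activated chloride currents. It had log2 intensities of 12.34, 12.24 and 12.50 in E2 uterus, against 5.51, 5.80 and 5.45 in oil uterus. All E2 uterus arrays were high and all oil uterus arrays low. The rise was 6.78 (SE 0.70, 95% interval 5.24 to 8.32, adjusted p = 3.4e-05 by limma), and of the 10 genes it was the one that changed most. This SE and interval pool the spread of all 4 groups, which was mostly in the oviduct. The SD of Clca1 was 0.13 in E2 uterus and 0.19 in oil uterus, against 1.91 in E2 oviduct and 0.73 in oil oviduct. In the oviduct Clca1 was at 5.57, 5.26 and 8.72 after E2, against 6.66, 5.73 and 5.22 after oil. E2 oviduct replicate 3 alone was high, and the groups overlapped. The difference was 0.65 (SE 0.70, adjusted p = 0.81 by limma), and it was -0.45 without that array (adjusted p = 0.80). The effect in oviduct minus that in uterus was -6.13 (SE 0.99, adjusted p = 0.0023 by limma), and -7.23 without that array.

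On E2 oviduct replicate 3, Clca1 lay 3.30 above the mean of the other 2 E2 oviduct arrays. Prap1, Gjb2 and Cfb, whose profiles over the 12 arrays were closest to that of Clca1, lay 1.55, 0.85 and 0.89 higher on that array. The array was 1 of the 12 by which they were chosen, so their higher values there are not separate support. Of 80 genes that E2 raised in uterus by more than 2 log2 units, 5 lay more than 1 log2 unit higher there, of 8 such genes among all those measured. Clca1 and Prap1 are themselves among the 5. The median displacement of the 80 genes was 0.20, against 0.0021 for all genes. Of the patterning genes that were lower in oil oviduct than in oil uterus, Hoxa10 lay at -0.02, Hoxa11 at 0.11, Hoxd10 at 0.26 and Hoxd11 at 0.25 on that array relative to the other 2. The part of RNA from another tissue in the Clca1 value of that array was not tested.

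Clca1 lies among related genes on chromosome 3, with Clca4a and Clca2 as its neighbours in the gene order of assembly GRCm38.p6. These relatives moved in different directions in E2 uterus. Clca3b rose by 3.31 (SE 0.27), to a mean of 8.60 in E2 uterus against 5.30 in oil uterus. Clca2 fell by 1.60 (SE 0.09), to 5.34 in E2 uterus against 6.93 in oil uterus, and Clca3a1 fell by 0.69 (SE 0.18), to 7.34 against 8.03. Clca3a2 (-0.22), Clca4a (0.02) and Clca4b (-0.15) did not pass limma's test. In the oviduct none of the 7 genes of the cluster passed it, and Clca4b had an unadjusted p of 0.016. Sequences of this family resemble each other, so probe sets may share signal.

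Ano1, a calcium-activated chloride channel of secretory epithelium, smooth muscle and pacemaker cells, was at 8.52, 8.62 and 8.77 in E2 uterus, against 9.38, 9.49 and 9.28 in oil uterus. The E2 uterus arrays were all lower. Ano1 fell by 0.75 (SE 0.09, adjusted p = 7.5e-05 by limma). In the oviduct it was at 10.14, 10.13 and 10.03 after E2, against 10.13, 10.03 and 9.90 after oil. These groups overlapped, and the difference of 0.08 (95% interval -0.11 to 0.27) did not pass the test. The E2 effect in oviduct minus that in uterus was 0.83 (SE 0.12, adjusted p = 0.0013 by limma).

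Ano2, a calcium-activated chloride channel best known from sensory neurons, fell in both tissues. It was at 5.30, 5.34 and 5.53 in E2 oviduct, against 7.63, 7.67 and 6.72 in oil oviduct. All E2 oviduct arrays lay below the lowest oil array, which was replicate 3. The fall was -1.95 (SE 0.22, 95% interval -2.43 to -1.47, adjusted p = 0.0036 by limma), and -2.26 without that oil array. With the oviduct arrays fitted alone the same difference had an adjusted p of 0.070 by limma. In the uterus Ano2 was at 5.52, 5.38 and 5.25 after E2, against 6.95, 6.78 and 6.41 after oil. These groups did not overlap either, and Ano2 fell by 1.33 (SE 0.22, adjusted p = 0.00087 by limma). The effects differed by -0.62 between oviduct and uterus (SE 0.31, adjusted p = 0.27 by limma), and by -0.93 without oil oviduct replicate 3 (adjusted p = 0.0089). With all arrays kept but weighted by their quality, it also passed the test (-0.65, adjusted p = 0.032 by limma).

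The pairs Slc26a4 and Slc26a3, and Scnn1b and Scnn1g, sit close together in the genome, and in each pair 1 gene passed the test in uterus and the other did not. Slc26a4 and Slc26a3 are separated in the gene order by Cbll1 alone, and Scnn1g and Scnn1b are direct neighbours. The 250 bases before the start of these 4 genes and of Cftr are shown from RefSeq (GRCm38.p6), 5′ to 3′ on the strand of the gene, so that the neighbours can be read side by side. Capitals mark GGTCA or its complement TGACC (the estrogen response element half-site), TGTTCT or AGAACA (the half-site of other steroid receptors), and GGGCGG or CCGCCC (the GC box).
Cftr, chr6:18170437-18170686, plus strand: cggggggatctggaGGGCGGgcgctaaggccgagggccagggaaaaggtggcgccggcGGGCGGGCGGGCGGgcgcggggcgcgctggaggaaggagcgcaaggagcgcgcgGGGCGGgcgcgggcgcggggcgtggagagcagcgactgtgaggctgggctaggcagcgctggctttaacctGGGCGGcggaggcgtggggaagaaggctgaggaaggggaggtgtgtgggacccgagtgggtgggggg
Slc26a4, chr12:31559985-31560234, minus strand: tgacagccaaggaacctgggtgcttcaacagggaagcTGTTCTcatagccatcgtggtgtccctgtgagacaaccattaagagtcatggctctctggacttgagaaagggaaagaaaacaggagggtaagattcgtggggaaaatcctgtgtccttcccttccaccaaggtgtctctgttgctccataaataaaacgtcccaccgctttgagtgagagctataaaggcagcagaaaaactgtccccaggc
Slc26a3, chr12:31437969-31438218, plus strand: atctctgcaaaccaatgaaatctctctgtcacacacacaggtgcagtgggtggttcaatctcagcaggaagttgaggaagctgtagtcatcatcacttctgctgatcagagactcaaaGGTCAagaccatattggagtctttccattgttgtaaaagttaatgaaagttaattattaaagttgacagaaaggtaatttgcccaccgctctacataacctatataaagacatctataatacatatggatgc
Scnn1b, chr7:121864788-121865037, plus strand: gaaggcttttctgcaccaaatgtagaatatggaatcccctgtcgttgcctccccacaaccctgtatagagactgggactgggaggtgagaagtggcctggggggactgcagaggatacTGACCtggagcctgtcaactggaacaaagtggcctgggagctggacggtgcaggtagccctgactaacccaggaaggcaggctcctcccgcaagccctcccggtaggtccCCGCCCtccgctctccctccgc
Scnn1g, chr7:121734229-121734478, plus strand: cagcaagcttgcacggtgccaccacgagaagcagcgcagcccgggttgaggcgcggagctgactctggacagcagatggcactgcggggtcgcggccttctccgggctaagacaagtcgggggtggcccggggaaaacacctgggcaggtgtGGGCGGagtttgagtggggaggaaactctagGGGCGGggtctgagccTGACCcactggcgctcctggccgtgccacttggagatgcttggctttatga

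The full estrogen response element, GGTCA and TGACC with any 3 bases between them, was in none of the windows of the 8 listed genes that the promoter table holds, and 0.0639% of all 32851 windows of this length hold it. GGTCA, searched on both strands, was in at least 1 window of 6 of the 8 genes (Ano1, Ano2, Slc26a3, Scnn1b, Scnn1g and Sgk1) and in 35.2% of all windows. TGTTCT was in windows of 2 of the 8 (Slc26a4 and Sgk1) and in 16.1% of all windows. GGGCGG was in windows of 6 of the 8 (Cftr, Ano1, Ano2, Scnn1b, Scnn1g and Sgk1) and in 32.7% of all windows, with 6 copies in the Cftr window, overlapping ones included. Ano2 and Sgk1 have several windows each, so a match in at least 1 of them is more likely than for the other genes. These are matches of letters in short windows and not sites of binding.

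Slc26a4 encodes pendrin, which exchanges chloride for bicarbonate or iodide. It was at 6.17, 6.08 and 6.14 in E2 uterus, against 4.93, 4.93 and 4.99 in oil uterus. The groups were narrow and apart. Slc26a4 rose by 1.18 (SE 0.07, adjusted p = 5.4e-07 by limma), a 2.27-fold higher intensity. In the oviduct it was at 5.47, 5.22 and 5.37 after E2, against 5.26, 5.20 and 5.18 after oil. Those arrays overlapped, and the difference of 0.14 (SE 0.07, adjusted p = 0.54 by limma) did not pass. The E2 effect in oviduct minus that in uterus was -1.04 (SE 0.10, adjusted p = 6.5e-05 by limma).

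Slc26a3, the chloride and bicarbonate exchanger of the colon, stayed below 4.40 on all 12 arrays. Its means were 3.88 ± 0.23 in E2 uterus and 3.82 ± 0.16 in oil uterus, and 3.96 ± 0.12 in E2 oviduct and 4.05 ± 0.11 in oil oviduct (SD, n = 3 each). It passed none of the 5 tests. At such a level a change of the RNA may not be visible on the array.

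Of the ENaC subunits, the beta subunit gene changed and the other 2 did not pass the test with all arrays weighted equally. Scnn1b was at 6.93, 7.47 and 7.57 in E2 uterus, against 6.14, 6.07 and 5.74 in oil uterus. All E2 uterus arrays were higher, and Scnn1b rose by 1.34 (SE 0.16, adjusted p = 0.00010 by limma), a 2.53-fold higher intensity. In the oviduct it was at 5.57, 5.53 and 5.52 after E2, against 5.44, 5.53 and 5.14 after oil. The difference there was 0.17 (95% interval -0.18 to 0.53), with arrays that overlapped. The E2 effect in oviduct minus that in uterus was -1.17 (SE 0.23, adjusted p = 0.0069 by limma).

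Scnn1a encodes the alpha subunit, without which the channel conducts little. It was at 6.08, 6.03 and 6.20 in E2 uterus, against 6.28, 6.52 and 6.06 in oil uterus. The difference was -0.18 (95% interval -0.45 to 0.08, adjusted p = 0.33 by limma). With arrays weighted by their quality, Scnn1a differed in uterus by -0.26 and passed the test (adjusted p = 0.042 by limma). In the oviduct it was at 7.04, 6.92 and 6.65 after E2, against 6.73, 6.79 and 6.84 after oil, with a difference of 0.08. The groups overlapped in both tissues. Scnn1g, the gamma subunit gene, averaged 4.63 ± 0.11 in E2 uterus and 4.52 ± 0.05 in oil uterus, a difference of 0.11 (95% interval -0.09 to 0.31, adjusted p = 0.46 by limma). It averaged 4.72 ± 0.08 in E2 oviduct and 4.68 ± 0.17 in oil oviduct, a difference of 0.05. Its group means were little above the 4.40 of the Y-linked genes.

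The difference between neighbours and between subunits was also measured within each array. The log2 difference Scnn1b minus Scnn1a was higher in E2 uterus than in oil uterus by 1.52, Scnn1b minus Scnn1g by 1.23, and Slc26a4 minus Slc26a3 by 1.12. With Slc26a3 below 4.40 throughout and Scnn1g little above it, the differences that involve them add little to the changes of Slc26a4 and Scnn1b themselves. Each had an exact permutation p of 0.1 (two-sided, n = 3 against 3), the smallest this design allows and no support for a difference between the genes, and 0.1333 after adjustment over the 8 differences tested in both tissues. In the oviduct the same differences moved by 0.09 (exact p = 0.7), 0.13 (exact p = 1.0) and 0.23 (exact p = 0.1). Ano2 minus Ano1 was lower after E2, by -0.58 in uterus and by -2.03 in oviduct, both with an exact p of 0.1.

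Sgk1, the kinase that acts on ENaC, was at 7.999, 8.13 and 7.91 in E2 uterus, against 7.45, 7.56 and 8.14 in oil uterus. Oil uterus replicate 3 was the highest of the 6 arrays. The difference was 0.30 (95% interval -0.03 to 0.63, adjusted p = 0.18 by limma), and 0.51 without that array (adjusted p = 0.0028 by limma). With all arrays kept but weighted by their quality it was 0.54 (adjusted p = 0.00084 by limma), so the call depended on the setting. In the oviduct Sgk1 was at 8.20, 8.34 and 8.14 after E2, against 7.86, 7.94 and 7.73 after oil. All E2 oviduct arrays were higher, but the difference of 0.39 (SE 0.15, adjusted p = 0.38 by limma) did not pass the test over all genes.

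The test of the E2 effect in oviduct minus that in uterus called 5 of the 10 genes, Ano1 higher and Cftr, Clca1, Slc26a4 and Scnn1b lower. The 5 of 10 stand beside 11.5% of all genes, with 5.77% called higher and 5.71% called lower. The comparisons of E2 and oil in the 2 tissues share no arrays. The median of the 10 genes was -0.39 in this test, against 0.0052 over all genes. Of 13 epithelial marker genes (below), 11 were called lower and 0 higher in it, with a median of -1.13. Their part in the result for the 10 genes was not tested.

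Between tissues of oil mice, 6 of the 10 genes differed, 5 higher and 1 lower in oviduct, beside 38.7% of all genes (17.3% higher and 21.5% lower). Arrays did not overlap for 5 of the 10 genes, where 46.6% of all genes did not overlap. Cftr stood out by size, with means of 8.65 ± 0.11 in oil oviduct and 5.02 ± 0.27 in oil uterus (SD, n = 3 each) and a difference of 3.63 (SE 0.13, adjusted p = 6.5e-09 by limma). Ano1 (0.63), Scnn1a (0.50) and Slc26a4 (0.27) were also higher in oil oviduct without overlap of the arrays. Ano2 was higher by 0.62, with arrays that overlapped and an adjusted p of 0.042 by limma that passed the threshold or not depending on the setting. Without oil uterus replicate 3, Ano2 differed by 0.47 (adjusted p = 0.15 by limma), and over all single arrays left out by 0.46 to 0.93. Scnn1b was lower in oil oviduct, by -0.61 (SE 0.16, adjusted p = 0.0100 by limma). Clca1, Slc26a3, Scnn1g and Sgk1 did not pass the test. Without oil replicate 3 in both tissues, Sgk1 differed by 0.39 (adjusted p = 0.0088 by limma), against 0.13 with all arrays, and Scnn1a by 0.36 (adjusted p = 0.0514 by limma), which lost its call. Without oil uterus replicate 3 alone, Sgk1 differed by 0.34 (adjusted p = 0.017 by limma).

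Between tissues of E2 mice 6 of the 10 genes differed, 3 higher and 3 lower in oviduct, beside 34.1% of all genes (15.2% higher and 18.9% lower). Arrays did not overlap for 7 of the 10 genes, where 49.8% of all genes did not overlap. Cftr (1.11), Ano1 (1.46) and Scnn1a (0.76) were higher in E2 oviduct than in E2 uterus, and Clca1 (-5.84), Slc26a4 (-0.78) and Scnn1b (-1.78) were lower. As measured, Slc26a4 was thus higher in oviduct than in uterus after oil and lower after E2, an order that changed relative to epithelial markers (below). For Cftr the group means ran in the order E2 oviduct, oil oviduct, E2 uterus, oil uterus, and E2 oviduct and oil oviduct did not differ beyond their spread. For Scnn1b the order was E2 uterus, oil uterus, E2 oviduct, oil oviduct, and the last 2 did not differ beyond their spread. For Ano2 the 2 E2 groups, at 5.39 in oviduct and 5.38 in uterus, could not be told apart (difference 0.01, 95% interval -0.48 to 0.49).

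Markers of epithelium also changed in E2 uterus. Of 13 epithelial genes measured, 12 rose and 0 fell in E2 uterus, with a median of 0.82 and a range of -0.26 to 2.58. Their mean log2 intensity was 9.46, 9.42 and 9.60 on the E2 uterus arrays, against 8.57, 8.34 and 8.44 on the oil uterus arrays, a change of 1.04. In the oviduct 0 rose and 1 fell, and the mean changed by -0.13. The mean was also higher in oil oviduct, at 9.57, 9.71 and 9.72, than in oil uterus, and 12 of the 13 genes were higher there. In whole tissue, more cells of a type and more RNA per cell cannot be told apart.

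Taken relative to the mean of the 13 epithelial genes on the same array, Cftr was still higher in E2 uterus than in oil uterus, by 1.62, and Clca1 by 5.73, with no overlap of the arrays. Slc26a4 (0.14) and Scnn1b (0.30) overlapped between E2 uterus and oil uterus on this scale. Ano1 (-1.79), Ano2 (-2.37) and Scnn1a (-1.22) were lower without overlap, as were Slc26a3, Scnn1g and Sgk1. The epithelial mean itself rose by 1.04 in E2 uterus, so a gene that did not change falls by about that much on this scale. Scnn1a, Slc26a3, Scnn1g and Sgk1 did not pass the test on the original scale with all arrays weighted equally. Their lower values here are therefore not separate evidence of a fall. The share of all genes without overlap on this scale was not computed. Between tissues of oil mice, Cftr remained 2.42 higher in oviduct than in uterus relative to the epithelial genes. Ano1 (-0.58), Scnn1a (-0.71) and Slc26a4 (-0.95), which were higher in oil oviduct as measured, were lower there on this scale without overlap. Ano2 (-0.59) was lower with overlap. The epithelial genes were themselves higher in oil oviduct, so a gene equal in both tissues comes out lower in oviduct here. After E2, Slc26a4 was also lower in oviduct on this scale (-0.82). For Ano2 the difference between E2 oviduct and oil oviduct was -1.82 on this scale and -1.95 as measured.

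**Figure D3:**
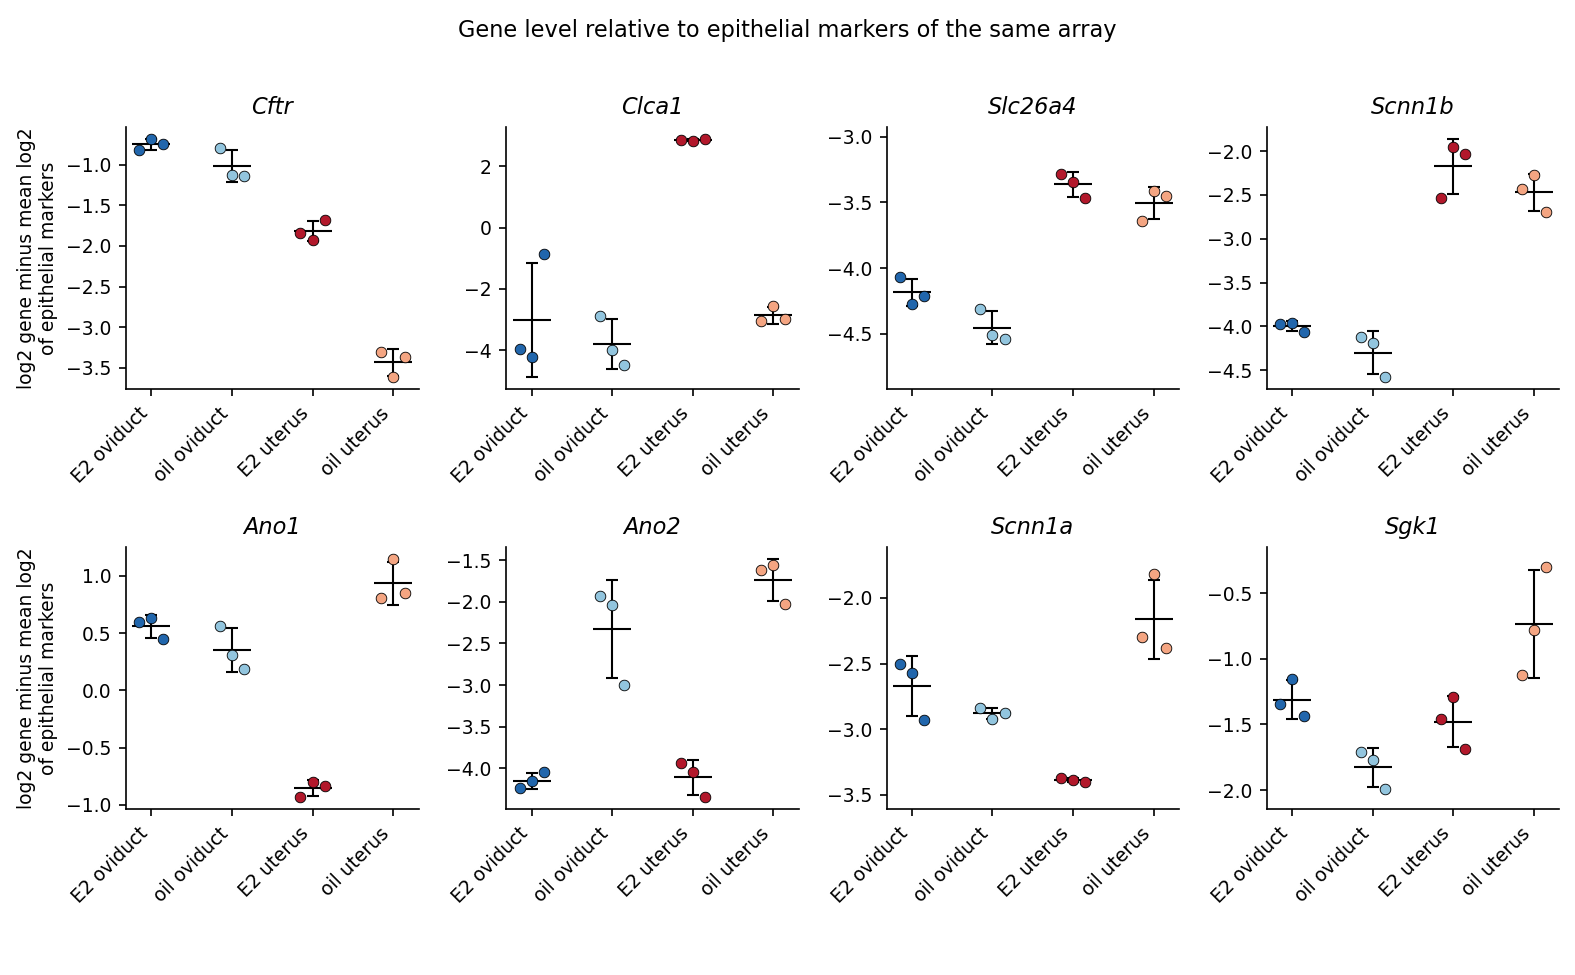
Log2 intensity of 8 of the genes minus the mean log2 intensity of 13 epithelial marker genes on the same array (y axis, with its own range in each panel) in E2 oviduct, oil oviduct, E2 uterus and oil uterus (x axis). Points are arrays and bars are the mean with the SD (n = 3). Cftr and Clca1 lie higher in E2 uterus than in oil uterus on this scale, by 1.62 and 5.73, while the arrays of these groups overlap for Slc26a4 and Scnn1b.

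Other cell type markers moved in E2 uterus as well. Of 9 macrophage genes 6 were higher and 0 lower, of 8 endothelial genes 1 was higher and 6 lower, of 10 stromal genes 0 were higher and 4 lower, and of 10 smooth muscle genes 2 were higher and 0 lower. Over all genes 12.4% were called higher and 14.3% lower in E2 uterus. In the oviduct none of these marker genes passed limma's test. The log2 of the summed intensity of the macrophage genes lay between 11.98 and 12.14 in E2 uterus and between 11.25 and 11.48 in oil uterus, and that of the endothelial genes between 11.88 and 12.01 in E2 uterus and between 12.43 and 12.66 in oil uterus. No mean of these genes lay below 4.40. Their part in the results for the 10 genes was not tested.

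A wider set of 161 genes of anion and sodium transport, in 7 lists, gave 149 measured genes. In E2 uterus 36 rose and 23 fell, beside 12.4% of all genes called higher and 14.3% called lower, with a median of 0.02 against -0.00070 over all genes. In E2 oviduct 0 rose and 2 fell, beside 0.16% and 0.13% of all genes. The 13 epithelial markers had medians of 0.82 in uterus and -0.12 in oviduct over the same arrays, and their part in these counts was not tested. The 2 genes that fell in E2 oviduct were the endosomal chloride transporter gene Clcn5 (-0.67, SE 0.12, adjusted p = 0.0497 by limma) and the inositol transporter gene Slc5a11 (-2.05, SE 0.24, adjusted p = 0.0051 by limma). Both also fell in E2 uterus, Clcn5 by 1.69 and Slc5a11 by 2.20.

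Among 39 other anion channel genes, 9 rose and 6 fell in E2 uterus, with a list median of 0.02. For this list and each list below, 12.4% of all genes were called higher and 14.3% lower. Some of the list counts lie near these shares and are not read as results about the lists. They include the 6 of 39 anion channel genes and the 3 of 20 basolateral genes that fell. The 2 of 21 genes of anion and bicarbonate transport that fell are also among them. So are the 3 that rose and the 4 that fell among 19 genes of CFTR activation and scaffolding. Gabrp, a chloride channel subunit of the GABA receptor family, rose by 5.28 (SE 0.18), to a mean of 10.72 in E2 uterus against 5.44 in oil uterus. In the oviduct Gabrp was high in both groups, at 10.43 after E2 and 10.28 after oil. Like Cftr, it was high in oviduct throughout and raised in uterus by E2. In E2 uterus, however, the Gabrp mean lay above both oviduct means, whereas that of Cftr (7.68) lay below both (8.79 after E2 and 8.65 after oil). Of 21 genes of anion and bicarbonate transport, 5 rose and 2 fell, with a median of 0.09. The cytosolic carbonic anhydrase gene Car2 rose by 1.37 (SE 0.15) and the anion transporter gene Slc26a9 by 1.30 (SE 0.19), while the membrane-bound carbonic anhydrase gene Car4 fell by 1.92 (SE 0.20).

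Chloride exit needs potassium channels and pumps of the basolateral membrane to sustain it. Of 20 such genes 6 rose and 3 fell in E2 uterus, with a median of 0.12. The potassium channel genes Kcnn4 (1.18, SE 0.08) and Kcnq1 (1.13, SE 0.08) and the sodium pump regulator Fxyd3 (1.12, SE 0.13) were the largest of those that rose. Among 19 genes of CFTR activation and scaffolding, 3 rose and 4 fell, with a median of 0.01. The membrane linker Ezr rose by 0.82 (SE 0.10) and the CFTR scaffold Slc9a3r1 by 0.71 (SE 0.15), and the related scaffold Slc9a3r2 fell by 0.64 (SE 0.07).

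ENaC is opened by proteases that clip its subunits. Of 12 genes of these proteases and their inhibitors 7 rose and 1 fell in E2 uterus, with a median of 0.47. The protease gene St14 rose by 1.39 (SE 0.09), and the gene of its inhibitor Spint2, which is also one of the epithelial markers, rose by 1.14 (SE 0.07). The trypsin inhibitor gene Spink1 fell by 3.92 (SE 0.24), to a mean of 3.51 in E2 uterus against 7.43 in oil uterus. The E2 uterus mean lies below 4.40, as do those of E2 oviduct (3.08) and oil oviduct (3.13), so background may limit the size of the fall. Of 24 genes of ubiquitin, aldosterone and kinase control of ENaC, 2 rose and 6 fell, with a median of -0.09. Hsd11b2, which shields the aldosterone receptor from glucocorticoids, fell by 1.16 (SE 0.11), the deubiquitinase gene Usp2 fell by 1.13 (SE 0.07), and the kinase gene Wnk2 rose by 0.83 (SE 0.10).

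Of 14 genes of other sodium entry routes 4 rose and 1 fell in E2 uterus, with a median of 0.05. The sodium phosphate cotransporter gene Slc34a2 rose by 3.06 (SE 0.15), to 7.68 in E2 uterus against 4.63 in oil uterus, and the sodium glucose cotransporter gene Slc5a1 rose by 1.15 (SE 0.16). Over the 149 genes the E2 effect in oviduct minus that in uterus was called higher for 11 and lower for 24. Of all genes, 5.77% were called higher and 5.71% lower. Beside the genes named above, the 3 genes that differed most in their lists included Ano4 (-1.72), a calcium-activated channel relative, the protease gene Tmprss4 (-1.27), the peptide receptor gene Vipr2 (0.79) and the cation channel gene Trpm4 (-0.66).

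**Figure D4:**
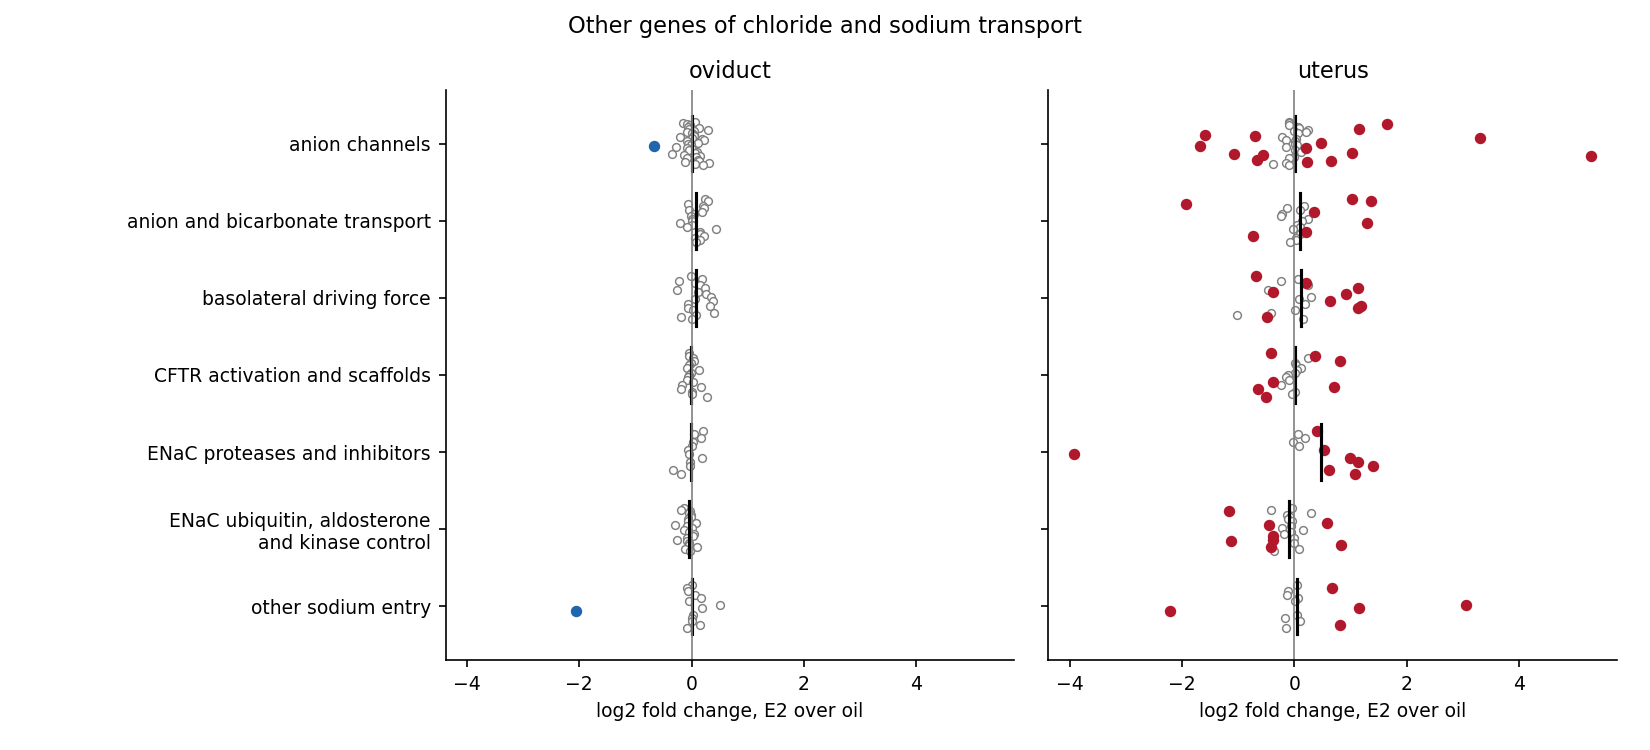
Log2 fold change of E2 over oil (x axis) for the 149 measured genes of 7 transport lists in oviduct (left) and uterus (right). Each point is a gene, filled points passed limma's test and bars mark the list medians. In uterus 36 genes rose and 23 fell, and in oviduct 0 rose and 2 fell.

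For the 6 genes whose group means spanned at least 1 log2 unit, the closest profiles over the 12 arrays were found by the root mean square (RMS) difference of log2 values centred on each gene's mean. Closest to Cftr were the urea transporter gene Slc14a1 (0.17), the potassium channel subunit gene Lrrc26 (0.25) and 1700086L19Rik (0.30). Slc14a1 averaged 10.42 in E2 uterus and 7.85 in oil uterus, and 11.66 in E2 oviduct and 11.47 in oil oviduct, which is the same order of groups as for Cftr. Closest to Clca1 were Prap1 (0.79), the gap junction gene Gjb2 (1.22) and the complement gene Cfb (1.25). These RMS differences were larger than those of the nearest genes of the other 5. The measure grows with the size of a gene's changes, however. The group means of Clca1 spanned 6.78 log2 units, against 1.18 to 3.77 for the other 5 genes. It therefore cannot show whether the profile of Clca1 was less shared.

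Closest to Ano1 were the bicarbonate cotransporter gene Slc4a4 (RMS difference 0.085), Zranb3 (0.10) and the growth factor gene Fgf7 (0.15). Slc4a4 averaged 8.66 in E2 uterus and 9.39 in oil uterus, and 10.27 in E2 oviduct and 10.04 in oil oviduct. Closest to Ano2 were the organic anion transporter gene Slco4c1 (0.46), the lysosomal protease gene Ctsd (0.49) and Ap1s3 (0.51). Ctsd fell by 0.75 in E2 uterus and changed by -1.08 in E2 oviduct, and both passed limma's test. Closest to Slc26a4 were 0610040J01Rik (0.11), the ATP-gated channel gene P2rx4 (0.13) and Fer1l6 (0.13). Closest to Scnn1b were Samd3 (0.20), the zinc transporter gene Slc39a2 (0.23) and Fer1l4 (0.25).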

How the data were processed

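The authors deposited a linear intensity for each of 35556 probe sets on 12 arrays, summarised with RMA per the submitters' processing notes (version not given in the sources used here). RMA compresses changes of dim probe sets. Of the probe sets, 21789 carried a single gene symbol, 1621 several and 12146 none in the platform annotation, and 21698 of the single-symbol ones matched by gene ID. The probe set with the highest mean stood for each of 19938 genes, and 999 genes had more than 1. Array medians were 89.5 to 92.9, and arrays of a group correlated at r 0.984 to 0.996 across genes.

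Log2 intensities were fitted with limma 3.58.1 (R 4.3.3; lmFit, eBayes) as 4 group means over 12 arrays, with two-sided p-values adjusted by Benjamini and Hochberg across the genes and a threshold of 0.05. The same code was tested on simulated data. Differences between genes within arrays were tested by exact permutation (scipy 1.17.1). The p-values measure the spread between these arrays, and limma's SEs and intervals pool it over the 4 groups.

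The 10 genes and all lists were chosen with earlier results of these data known. Text names all 10 genes, up to 3 genes per transport list and E2 comparison with the largest change among those called without overlap, and the 3 closest profiles of each gene spanning 1 log2 unit. The Clca relatives and the genes displaced on E2 oviduct replicate 3 were singled out after their values were seen. Alternatives were other normalizations, probe set choices, weights, blocks and left-out arrays.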

Additional observations from a re-analysis of the deposited data

Results flagged for a closer look

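The response to E2 differed between the tissues for 5 of the 10 genes, by limma's test of the E2 effect in oviduct minus the E2 effect in uterus. The difference was -2.52 for Cftr (SE 0.19, adjusted p = 1.7e-05 by limma), -6.13 for Clca1 (SE 0.99, adjusted p = 0.0023 by limma), and 0.83 for Ano1 (SE 0.12, adjusted p = 0.0013 by limma). It was -1.04 for Slc26a4 (SE 0.10, adjusted p = 6.5e-05 by limma) and -1.17 for Scnn1b (SE 0.23, adjusted p = 0.0069 by limma). With any single array left out, all 5 differences kept their direction and passed the test. Of the 13 epithelial markers, 11 were called lower and 0 higher in the same test, with a median of -1.13. Relative to their mean, Slc26a4 changed by 0.14 in uterus and 0.27 in oviduct, and Scnn1b by 0.30 in both. On that scale Cftr changed by 1.62 and 0.27, Clca1 by 5.73 and 0.78, and Ano1 by -1.79 and 0.21. The part of the epithelium in the 5 differences was not tested.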

How the results depend on the processing

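Over 12 alternative settings and 12 single arrays left out, 31 of 50 results for the 10 genes kept their direction and side of the threshold. 41 kept their side of the threshold, and 11 that were not called turned sign in at least 1 setting. Array weights called 8214 genes in uterus (5332 as reported), 264 in oviduct (58), 4531 for the difference between tissues in the E2 effect (2288) and 10554 between E2 tissues (6793). Of the 10 genes, array weights called 8 in uterus, Scnn1a and Sgk1 being the additions. The count of called genes in oviduct was 10 with each tissue fitted alone, 19 over all probe sets and 121 without oil replicate 3 in both tissues. Leaving out single arrays gave 4226 to 5887 genes in uterus, 14 to 67 in oviduct, 1571 to 2521 for the difference in effect, 6760 to 7708 between oil tissues and 5461 to 7297 between E2 tissues. Among genes above the median level, which keeps Cftr, Clca1, Ano1 and Sgk1, 3 of the 10 genes were called in uterus, 0 in oviduct, 3 for the difference in effect, 2 between oil tissues and 3 between E2 tissues, since the other 6 were not tested. None (0) were called in oviduct with the tissue fitted alone. Ano2 between oil tissues lost its call in 13 settings (adjusted p up to 0.155 by limma). Scnn1a between oil tissues had an adjusted p of 0.0514 by limma without oil replicate 3 in both tissues. Whether equal replicate numbers mark the same mouse could not be settled. Over 6 pairs of tissues of the same treatment and number, deviations correlated at 0.0045 to 0.26, and 2 of the 6 exceeded 0.1, so the arrays were not treated as paired. With the replicate number as a block, 5318, 39, 2218, 7711 and 6796 genes were called in uterus, in oviduct, for the difference in effect, between oil tissues and between E2 tissues, and with the number within treatment as a random replicate block (consensus correlation 0.099) 5341, 57, 2677, 8116 and 7247. Neither block changed a call among the 10 genes. The causes of these shifts were not tested otherwise, and signal over background was not measured per probe set.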
